A study of Mus musculus with 30 samples.

Results

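Oxidative phosphorylation subunit genes are the nuclear genes for the protein parts of the 5 enzyme complexes in the inner mitochondrial membrane. They were chosen by symbol: every gene whose name begins with Ndufa, Ndufb, Ndufc, Ndufs, Ndufv, Uqcr, Cox4 to Cox8 or Atp5, or is Sdha, Sdhb, Sdhc or Sdhd, leaving out pseudogenes and Ndufaf assembly factors. This gave 85 genes of the 20844 named in the table: 38 with complex I names, 4 of complex II, 8 of complex III, 18 of complex IV and 17 of complex V. Of these, 83 had a mean of at least 1 RPKM (reads scaled by transcript length in kilobases and by library depth) and entered the tests; Cox8c and Cox7b2 did not.

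The samples were 30 mammary tumours, each from a different animal of a ((MOLF x PyMT) x FVB) backcross. PyMT is the middle T antigen of mouse polyoma virus, an oncogene that gives rise to mammary carcinomas in mice that carry it; MOLF and FVB are inbred mouse strains. All tumours form a single group with no untreated, normal or time-matched samples, so the comparisons run along measured differences between tumours. The sources used here give no promoter for the oncogene, no age of the animals, and no stage or tumour cell content. RNA was measured by poly-A RNA sequencing of whole pieces of tissue. In such bulk samples, fewer cells of a type and less RNA per cell cannot be told apart.

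Complexes I and II feed electrons from NADH and succinate into the inner membrane, complex III passes them to cytochrome c, and complex IV hands them to oxygen. The protons pumped on the way drive complex V, the ATP synthase. Complex II is also an enzyme of the tricarboxylic acid cycle and is the only complex built wholly from nuclear genes; the others also hold subunits made inside the mitochondrion, on its own ribosomes. Several complex IV subunits exist in a form made in most tissues and a form made mainly in heart, skeletal muscle or brown fat.

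The markers of mammary epithelium were high in every tumour: Epcam had at least 313 RPKM and Krt8 at least 284 RPKM. Other tissues varied: the summed RPKM of 15 skeletal muscle markers ran from 51.3 to 18596, with a median of 270, and that of 12 adipocyte markers from 114 to 2696. Summed T cell markers ran from 20.2 to 120 RPKM and milk genes from 3162 to 54642 RPKM; these scores entered the joint fits as covariates only. The libraries fell into 14 deep ones, with an estimated 117 to 196 M reads (M, mega), and 16 shallow ones, with 42.6 to 61.9 M reads; the labels do not name this split, which was read from the values and treated as a technical batch. The mean insert size that the labels give, without a unit, was 233 ± 14.7 in deep and 261 ± 12.3 in shallow libraries (SD). Tumour 4150 stood apart: it was the shallowest library, its RPKM values summed to 775244 against a median of 639081, and 51 of the 77 core genes described below were highest in it. The subunit transcripts were short, with a median of 727 bases against 2721 bases for all tested genes that have a length, and 58 of 83 were no longer than 1000 bases, against 8.67% of tested genes. RPKM sums vary with the lengths of the transcripts that take up the reads, so results are also given with every tumour scaled to the same sum of RPKM, called equal totals.

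The 250 bases upstream of the start of transcription are shown for 4 complex IV genes that the isoform results turn on: Cox8b and Cox7a1, made mainly in muscle and brown fat, Cox8a, the general partner of Cox8b, and Cox6a1, the general partner of Cox6a2. They come from RefSeq, build GRCm38.p6, as chr7:140900447-140900696 on the minus strand for Cox8b, chr7:30183921-30184170 on the plus strand for Cox7a1, chr19:7217617-7217866 on the minus strand for Cox8a and chr5:115348959-115349208 on the minus strand for Cox6a1. Each is written 5' to 3' on its gene's strand, and capitals mark the motifs searched for: GCGCA and GCGC parted by any base (the type bound by the factor NRF1), CCGGAAG (the core bound by ETS factors), TATAAA (the TATA box) and CAGCTG (an E-box), each on both strands.
Cox8b: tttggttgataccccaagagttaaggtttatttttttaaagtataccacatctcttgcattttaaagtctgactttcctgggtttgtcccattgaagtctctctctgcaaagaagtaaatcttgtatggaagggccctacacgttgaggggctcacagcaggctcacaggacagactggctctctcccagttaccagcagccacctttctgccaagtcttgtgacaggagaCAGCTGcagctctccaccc
Cox7a1: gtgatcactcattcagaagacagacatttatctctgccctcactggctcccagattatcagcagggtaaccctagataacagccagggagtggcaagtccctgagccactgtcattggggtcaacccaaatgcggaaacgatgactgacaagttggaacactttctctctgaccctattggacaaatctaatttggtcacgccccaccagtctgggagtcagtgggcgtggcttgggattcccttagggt
Cox8a: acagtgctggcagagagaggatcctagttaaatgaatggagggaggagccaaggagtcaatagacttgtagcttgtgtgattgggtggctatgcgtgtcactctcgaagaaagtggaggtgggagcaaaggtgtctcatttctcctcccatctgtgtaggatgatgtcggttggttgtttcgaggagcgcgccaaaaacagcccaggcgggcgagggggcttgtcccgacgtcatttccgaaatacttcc
Cox6a1: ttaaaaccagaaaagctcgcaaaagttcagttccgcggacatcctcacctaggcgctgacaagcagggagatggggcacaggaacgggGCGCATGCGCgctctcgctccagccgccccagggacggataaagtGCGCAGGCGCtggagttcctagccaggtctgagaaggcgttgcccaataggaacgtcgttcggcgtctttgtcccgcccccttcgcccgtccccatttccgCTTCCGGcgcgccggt
The Cox8b window held an E-box beginning 19 bases before the start, and the Cox6a1 window held NRF1-type motifs 162 and 117 bases before the start and an ETS core, read from the other strand, 16 bases before it. No searched motif was in the Cox7a1 and Cox8a windows. Promoter windows were matched for 69 of the 85 genes, 65 of them core genes and 3 tissue-restricted isoforms. Of the 65, 18.5% (12) held the NRF1-type motif and 16.9% (11) the ETS core, against 3.86% and 7.05% of 27025 windows of the same length. TATAAA was in 9.23% of the 65 (6) and CAGCTG in 7.69% (5), against 13% and 12.8% of all windows. These are matches of letters, and neither binding nor base composition was tested.

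Of the 83 genes tested, 6 are tissue-restricted isoforms by name: Cox4i2, Cox6a2, Cox6b2, Cox7a1, Cox8b and Ndufa4l2. The other 77, called core genes here, had means from 16.1 RPKM (Ndufs5) to 703 RPKM (Atp5b), with a median of 135 RPKM against 11.7 RPKM for all tested genes. RPKM is per length, so levels of different genes can be set side by side, within a limit. Of the 85 genes, 7 have more than 1 row, and their levels depend on the row kept. The 85 genes together took 1.71 to 2.63% of the summed RPKM of a tumour, lowest in 4020 and highest in 4150, with a median of 2.02%.

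Complex V had the most abundant transcripts. Atp5b, which encodes the catalytic beta subunit, had 515 RPKM in the lowest tumour, a median of 697 and 894 RPKM in the highest. Atp5a1, the alpha subunit, had 327, a median of 499 and 604 RPKM. Both were lowest in tumour 4150, in which 10 of the 17 complex V genes reached their highest value. Atp5l, the membrane subunit g, had the lowest mean of complex V, 127 ± 31.5 RPKM (SD, n = 30). Atp5k and Atp5g2 were the next lowest, with 154 ± 48.4 and 171 ± 51.6 RPKM. The ring of c subunits, which turns as protons pass, is encoded by 3 genes for the same mature protein. With 1 row kept per gene, Atp5g3 gave 53.8 ± 5.23% of their summed RPKM, Atp5g1 25.7 ± 2.50% and Atp5g2 20.5 ± 4.72%. Atp5g1 alone of the 3 has 2 rows, with a mean of 214 RPKM in the kept row and 421 RPKM over both. Its share would be larger with both rows, and those of the other 2 genes smaller. The share of Atp5g2 was most variable in relation to its mean, from 15.6% in tumour 4378 to 30.4% in tumour 4142.

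Complex IV was led by Cox4i1, with 513 ± 80.5 RPKM, Cox6a1, with 451 ± 85.6 RPKM, and Cox6b1, with 358 ± 81.9 RPKM. With 1 row kept per gene, the lowest core gene of this complex was Cox7a2l, with 73.5 ± 9.54 RPKM. Cox7a2l helps to join complexes III and IV into larger assemblies. It has 2 rows, with a mean of 143 RPKM over both, where Cox7b had 144 RPKM in its only row. It was also the steadiest core gene of all by range, its highest value being 1.57 times its lowest. Cox8c was listed at 0 in 3 tumours and reached 0.442 RPKM at most, and Cox7b2 was listed at 0 in 19 tumours and reached 0.099 RPKM.

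Complex III was led by Uqcrh, the hinge subunit, with 228 ± 45.2 RPKM, and ended with Uqcrfs1, the Rieske iron-sulphur subunit that passes electrons on, with 89.9 ± 11.8 RPKM. Uqcr10, a small accessory subunit, had the largest spread of all core genes, an SD of 0.41 on the log2(RPKM + 1) scale, from 77.3 RPKM in tumour 4016 through a median of 133 to 254 RPKM in tumour 4042. The 4 genes of complex II lay close together: Sdhb, the iron-sulphur subunit, had 116 ± 19.4 RPKM and Sdha, the flavoprotein that oxidises succinate, 116 ± 16.2 RPKM. The membrane anchors Sdhc and Sdhd had 75.8 ± 12.7 and 71.7 ± 10.4 RPKM. Their SDs lay between 0.21 and 0.23 on the log2 scale, below the median of 0.28 for core genes and of 0.27 for all tested genes.

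The core genes of complex I ran from 16.1 to 367 RPKM. Ndufa4, named for complex I and since assigned to complex IV, had 367 ± 97.1 RPKM, and Ndufb8 and Ndufb9, accessory subunits of the membrane arm, had 222 ± 31.1 and 187 ± 30.6 RPKM. At the other end stood Ndufs5 with 16.1 ± 5.91 RPKM and Ndufa11 with 25.8 ± 5.62 RPKM. The Ndufs5 value is uncertain, because the pseudogene Ndufs5-ps, left out here, had 16.9 ± 6.22 RPKM and the copies may share reads. Over all 77 core genes the SD ran from 0.16 to 0.41.

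**Figure D1:**
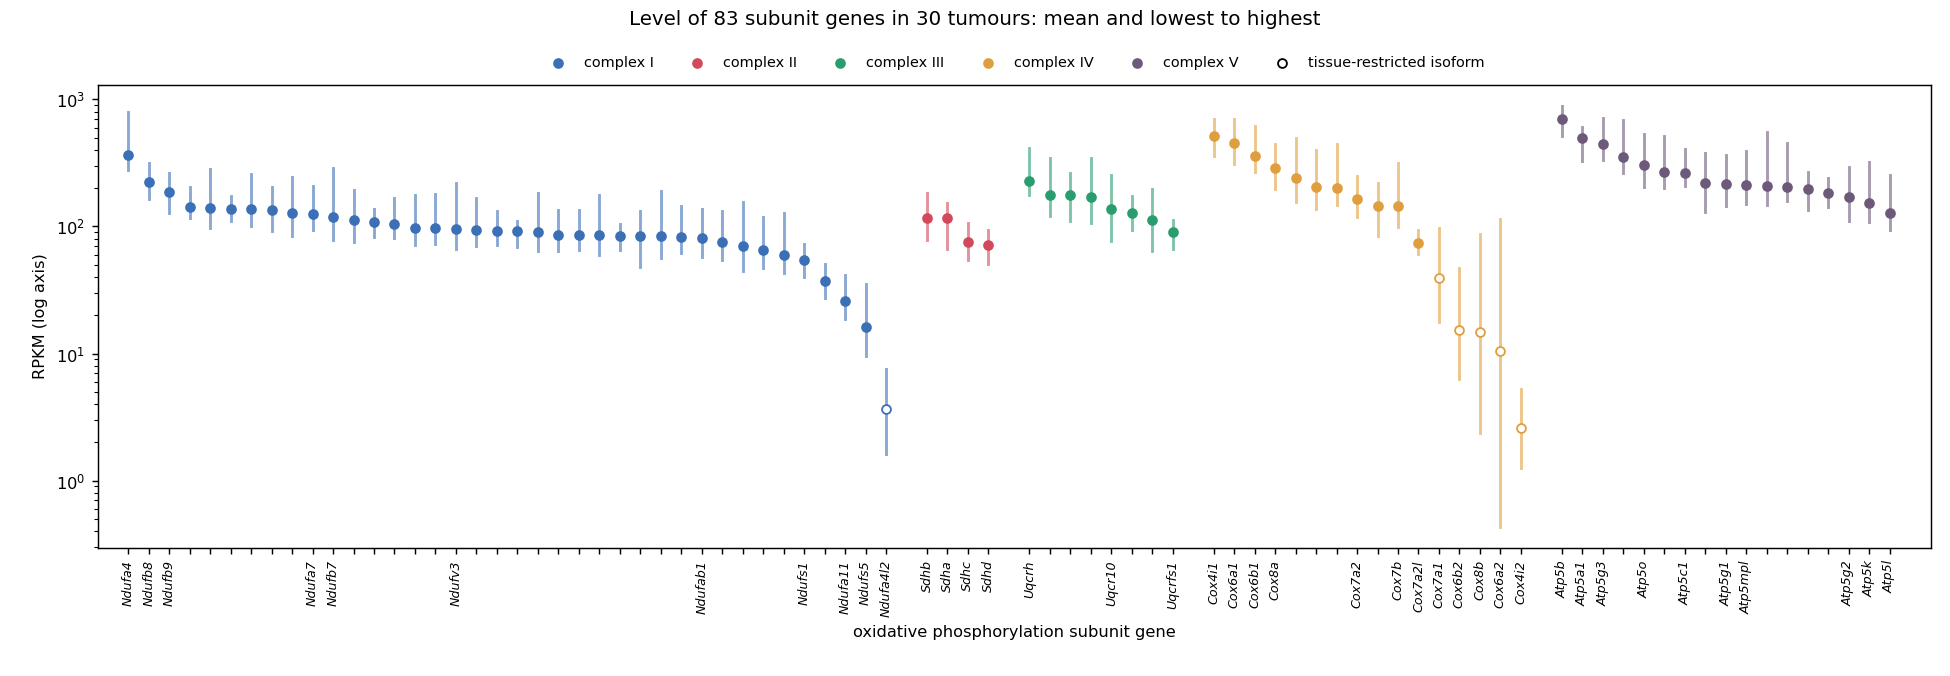
Mean RPKM over 30 tumours (point) and lowest to highest tumour (line) on a log axis for the 83 subunit genes tested, by complex and in order of mean; open points are tissue-restricted isoforms, and the main genes described in the text are labelled. Core means lie between 16.1 RPKM (Ndufs5) and 703 RPKM (Atp5b), and Cox6a2 and Cox8b have the longest lines.

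The muscle-type subunits of complex IV had the largest SDs on the log2(RPKM + 1) scale of all 83 genes: 1.59 for Cox6a2, 1.30 for Cox8b and 0.68 for Cox7a1, followed by 0.65 for Cox6b2. Cox6a2 is the heart and skeletal muscle form of subunit 6a. It had 0.435 RPKM in the lowest tumour (4438), a median of 2.11 RPKM and 115 RPKM in the highest (3273). Cox8b, the form of subunit 8 in muscle and brown fat, had 2.35 RPKM in tumour 4016, a median of 6.78 RPKM and 86.9 RPKM in tumour 3273. Cox7a1, the muscle and brown fat form of subunit 7a, had 17.8 RPKM in tumour 4438, a median of 29.8 RPKM and 97.2 RPKM in tumour 3871.

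For Cox6a2, 7 tumours stood above the rest: 3273, 4142, 4262, 4357, 4144, 3540 and 4516, with 14.1 RPKM or more, while the next, 4139, had 7.26 RPKM. All 7 were shallow libraries. Cox8b was highest in the same 7 tumours and in 4036, a deep library with 34.0 RPKM. For Cox7a1 the 5 highest tumours, with 79.6 RPKM or more, were 3871, 3654, 3273, 4144 and 4357, and the next had 45.9 RPKM. The muscle gene Ckm, muscle creatine kinase, had 1896 RPKM in tumour 3273 and 481 RPKM in 4357, but 48.7 RPKM in 3654 and 8.13 RPKM in 3871. Tumours 3871 and 3654 also had the smallest insert sizes, 201.8 and 205.9.

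As a share of each pair of forms, Cox6a2 made up at most 21.4% of Cox6a2 plus Cox6a1, in tumour 3273, with a median of 0.508%. Cox8b made up at most 24.5% of Cox8b plus Cox8a, in tumour 4357, with a median of 2.13%. Cox7a1 was a larger part of its pair in every tumour, from 8.17% of Cox7a1 plus Cox7a2 through a median of 14.9% to 41.0%. Cox4i2, the lung form of subunit 4, stayed between 0.239 and 0.973% of its pair.

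Each gene was regressed with limma on scores of marker lists, and a gene was called at a Benjamini-Hochberg adjusted p under 0.05 over all tested genes. Slopes are log2 changes per SD of the score, with their standard errors. With the skeletal muscle score, 3 of 83 subunit genes rose and none fell, where 1.32% of 13595 tested genes were called in either direction, 1.27% rose and 0.0441% fell. They were Cox6a2 (slope 1.52 ± 0.09, adjusted p = 5.06e-14), Cox8b (1.01 ± 0.18, adjusted p = 0.000582) and Cox7a1 (0.54 ± 0.11, adjusted p = 0.00193). The median slope over the 83 genes was 0.04, against -0.01 over all tested genes. None of the core genes was called, and the smallest adjusted p among them was that of Ndufb10 (slope 0.14 ± 0.05, adjusted p = 0.273).

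The deep and the shallow libraries were also each fitted alone, and the difference between these depth classes was not tested. Within the deep libraries, whose summed muscle markers reached 827 RPKM at most, Cox6a2 alone was called (slope 0.53 ± 0.08, adjusted p = 0.00762), and the slopes of Cox8b and Cox7a1 were -0.10 ± 0.23 and -0.01 ± 0.11. Within the shallow libraries, whose muscle markers reached 18596 RPKM, all 3 rose, with slopes of 1.82 ± 0.14, 1.32 ± 0.19 and 0.60 ± 0.14. The share of all tested genes called was 0.184% in the deep and 2.04% in the shallow libraries. Without the 2 tumours with the most extreme muscle scores, 3273 and 4357, the slope of Cox7a1 was 0.35 and no longer called.

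**Figure D2:**
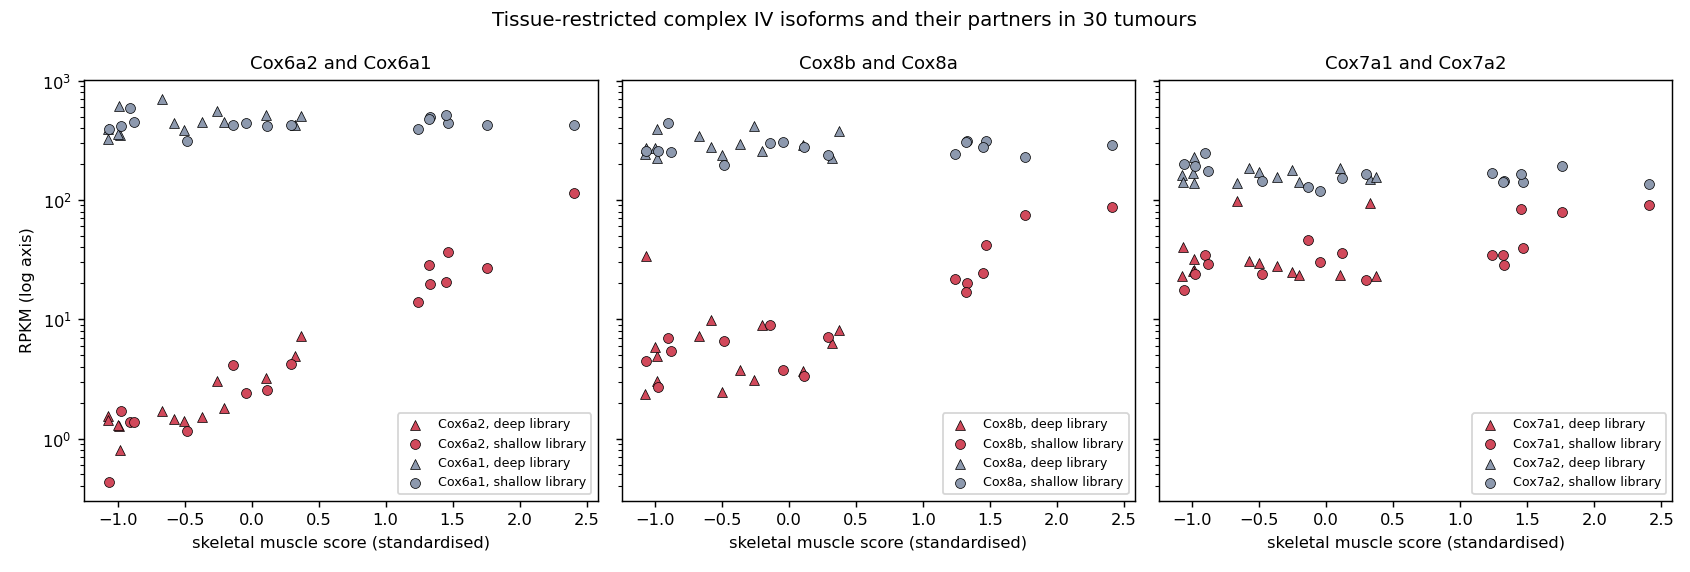
RPKM (log axis) of Cox6a2, Cox8b and Cox7a1 (red) and of their general partners Cox6a1, Cox8a and Cox7a2 (grey) in each of 30 tumours against the standardised skeletal muscle score, with triangles for deep and circles for shallow libraries. Cox6a2 climbs with the score up to 115 RPKM in tumour 3273, Cox8b has a high deep library at the low end of the score (tumour 4036, 34.0 RPKM), and Cox7a1 has 2 high deep libraries (3871 and 3654).

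With the adipocyte score, 2 subunit genes rose and none fell, where 5.95% of 13599 tested genes were called, 5.61% rose and 0.338% fell: Cox8b (1.07 ± 0.13, adjusted p = 3.09e-07) and Cox6a2 (0.81 ± 0.22, adjusted p = 0.0173). Cox8b rose within the deep libraries too (0.77 ± 0.10, adjusted p = 0.000477) and within the shallow ones (1.39 ± 0.15, adjusted p = 2.89e-05). The slope of Cox6a2 was -0.0025 within the deep libraries and 1.63 ± 0.23 within the shallow ones (adjusted p = 0.000357), where Cox7a1 was called too (0.57 ± 0.14, adjusted p = 0.0328). The share of all tested genes called was 1.99% in the deep and 2.89% in the shallow libraries. Over all tumours but 3273 the slope of Cox6a2 was 0.62 ± 0.20 with an adjusted p of 0.0795. Ucp1, the uncoupling protein of brown fat, which lets protons back across the inner membrane without making ATP, had a median of 0.19 RPKM and its highest values in tumours 4357 (76.7 RPKM), 4036 (32.4), 4516 (20.75), 3273 (14.9), 4459 (12.1), 3540 (9.19) and 4142 (7.77). Of the 8 tumours highest for Cox8b, 4262 and 4144 had 0.493 and 0.266 RPKM of Ucp1. Cidea, a lipid droplet protein abundant in brown fat, was also highest in 4357, with 45.6 RPKM. Ucp1 and Cidea are both in the adipocyte marker list, so their values are part of the adipocyte score and not separate from it. Muscle and adipocyte markers were both high in tumour 3273, and their separate parts in the isoform levels were not tested.

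Cox6b2, a form of subunit 6b best known from testis, differed between the deep and the shallow libraries. It had 6.36 to 16.3 RPKM in deep libraries, with a median of 8.94, and 10.8 to 46.7 RPKM in shallow libraries, with a median of 18.6. The ranges overlapped in part, and the highest value was that of tumour 4150. It was the only subunit gene called for the difference of deep minus shallow libraries (log2 difference -0.92 ± 0.16, adjusted p = 0.000979), where 1.24% of 13610 tested genes were called, 0.022% higher and 1.22% lower in deep libraries. With insert size as a covariate, where 3.89% of tested genes were called, 7 subunit genes were lower in deep libraries, Cox6b2 (-1.46 ± 0.20), Atp5k, Ndufv3, Atp5j2, Ndufa1, Ndufc1 and Cox7c. Cox6b2 has 2 rows in the table, and no biological reading of its values can be told apart from the depth class.

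Ndufs5, an accessory subunit of complex I, was the only subunit gene called for insert size in the joint fit with the tissue scores (slope -0.27 ± 0.05 per SD, adjusted p = 0.0107), where 0.257% of 13610 tested genes were called, 0.147% rose and 0.11% fell. It had 9.53 RPKM in the lowest tumour, a median of 14.7 and 35.3 RPKM in the highest. Its 3 highest tumours were 4150, 3871 and 3654, with 35.3, 33.0 and 27.9 RPKM, and the next had 19.9 RPKM. Without tumour 3871 the slope was -0.21 and not called. With depth class as a covariate it remained called, beside Atp5k and Ndufv3.

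Ndufa4l2, a relative of Ndufa4 known to be induced by the hypoxia factor HIF-1, had 1.63 RPKM in tumour 4459, a median of 3.55 RPKM and 7.51 RPKM in tumour 4036. With the hypoxia score no subunit gene was called by limma at an adjusted p under 0.05, where 0.184% of 13594 tested genes rose and 0 fell, and 1 of the 83 had an unadjusted p under 0.05. That gene was Ndufa4l2 (slope 0.22 ± 0.06, adjusted p = 0.196). Without tumour 4036 its slope was 0.24 ± 0.05 with an adjusted p of 0.0209. Slopes were positive for 76 of the 83 genes with the deposited values and for 47 of 83 with equal totals.

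The core genes varied together across tumours. The median Pearson correlation over their 2926 pairs was 0.54 across the 30 tumours, against 0.01 over all pairs of tested genes, and 91.6% of core pairs were above 0. With equal totals it was 0.32 against 0.07, and without tumour 4150 it was 0.44 with the deposited values and 0.26 with equal totals. Within the deep libraries alone it was 0.56 and within the shallow ones 0.56. These values are descriptions: the pairs share libraries and depth, and most of the transcripts share a short length.

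Complexes I, IV and V were alike in this. The median correlation within complex I was 0.59, within complex IV 0.55 and within complex V 0.52, and between them it was 0.58 for I with IV, 0.54 for I with V and 0.56 for IV with V. Complex II had the lowest medians with I, IV and V. Its genes had a median of 0.42 with each other, but 0.17 with complex I and 0.19 with both IV and V. With equal totals these were 0.39, -0.02, 0.01 and 0.04. The 4 genes were not alike. The mean correlation with the other core genes was -0.19 for Sdha and 0.09 for Sdhd, but 0.32 for Sdhc and 0.45 for Sdhb. It was also low outside complex II, for Ndufs1 (-0.04), Atp5a1 (0.02) and Atp5b (0.17). Sdha and Sdhd were both lowest in tumour 4150. Complex II transcripts had a median of 2065.5 bases against 732 for all core genes, and the part of length was not tested. Complex III had a median of 0.41 within itself, and 0.50 with complex I, 0.51 with IV, 0.49 with V and 0.36 with II. With equal totals these were 0.21, 0.29, 0.29, 0.31 and 0.18.

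**Figure D3:**
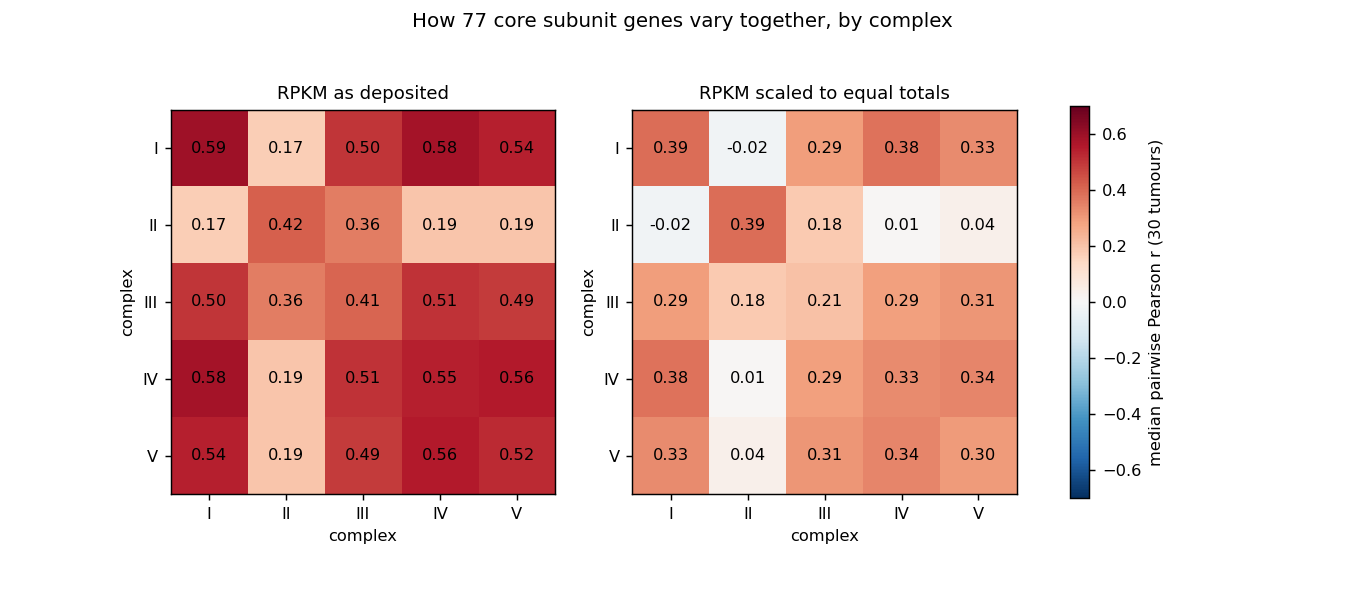
Median pairwise Pearson correlation over 30 tumours within complexes (diagonal) and between complexes for 77 core genes, for RPKM as deposited (left) and scaled to equal totals (right). The row of complex II is palest against I, IV and V, at 0.17 to 0.19 on the left and -0.02 to 0.04 on the right.

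The core genes least like the others were Sdha, with a mean correlation of -0.19 with the other core genes, Ndufs1 (-0.04), an iron-sulphur subunit of complex I, Atp5a1 (0.02), Sdhd (0.09) and Atp5b (0.17). Some of them correlated with each other: the value was 0.90 between Atp5a1 and Atp5b and 0.82 between Sdha and Ndufs1, but 0.24 between Sdha and Sdhb. Sdha had 66.2 RPKM in tumour 4150, a median of 116 RPKM and 154 RPKM in tumour 4357. Ndufs1 had 40.0 RPKM in tumour 4150, a median of 53.6 RPKM and 73.2 RPKM in tumour 4438. Tumour 4150, high for most core genes, was thus the lowest for both. These 5 genes have transcripts of 1231 to 2900 bases. The median correlation was 0.63 over core pairs with both transcripts up to 1000 bases, 0.43 with both longer and 0.42 between short and long. Ndufab1, the mitochondrial acyl carrier protein, listed with 3479 bases, had a mean correlation of 0.55. Lengths are those of linked GENCODE transcripts and may differ from those behind the deposited values, so this gene may not be an exception.

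**Figure D4:**
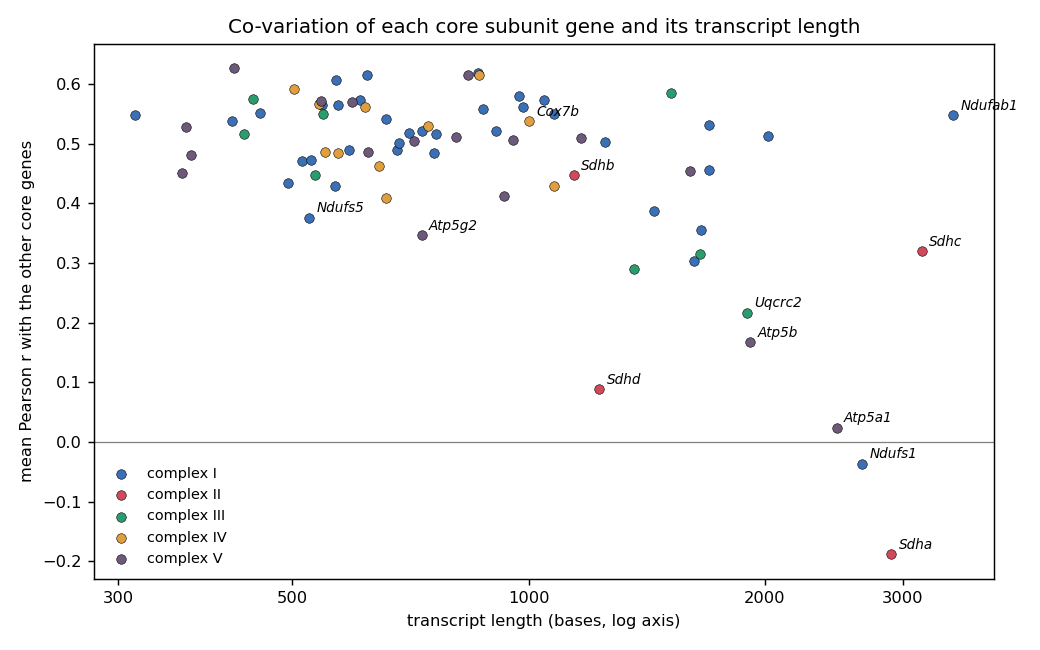
Mean Pearson correlation of each of 77 core genes with the other core genes over 30 tumours (RPKM as deposited) against transcript length in bases on a log axis, coloured by complex. Sdha, Ndufs1, Atp5a1, Sdhd and Atp5b lie at the bottom, at 0.17 or less, and Ndufab1 is high at its listed length of 3479 bases.

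Outside the subunit genes, those most like the mean standardised level of the 83 over the 30 tumours were Mrpl54 (Pearson r = 0.86), Gstp2 (0.86), Mrpl42 (0.85), Mcrip2 (0.85), Cox17 (0.85), Bola3 (0.85), Eef1d (0.84), Pop5 (0.84), Mrpl11 (0.83) and Slirp (0.83). Mrpl54, Mrpl42 and Mrpl11 encode proteins of the mitochondrial ribosome, and Cox17 the copper chaperone for complex IV. With equal totals these correlations lay between 0.65 and 0.82. The least alike were Dip2c (-0.89), Arhgef12 (-0.89), Kat6a (-0.89), Arhgap5 (-0.87) and Phlpp1 (-0.87), whose transcripts have 5197 to 10752 bases.

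With a score of the 78 mitochondrial ribosome genes, 69 of 83 subunit genes rose and none fell, where 14.3% of 13532 tested genes rose, 15.1% fell and 29.4% were called in either direction. The median slope of the 83 genes was 0.17, against -0.01 over all tested genes. With equal totals 32 rose and none fell, where 5.87% of tested genes rose, 21.6% fell and 27.4% were called, and the median slope was 0.09 against -0.05. Of genes outside the set with transcripts up to 1000 bases, 34.1% rose with the deposited values and 18.6% with equal totals. Both scores and subunit levels were high in the same tumours: 4150, 4030 and 4042 had the 3 highest mitochondrial ribosome scores and the 3 highest mean subunit levels, and the 3 highest RPKM sums. The part of these sums in the result was not tested beyond the equal-totals values.

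By complex, 33 of 38 complex I genes rose with the mitochondrial ribosome score, 8 of 8 of complex III, 12 of 16 of complex IV and 15 of 17 of complex V, but 1 of 4 of complex II, Sdhc. With equal totals the counts were 13, 4, 6 and 9, and 0 for complex II. The smallest p-values belonged to Atp5mpl, a small membrane subunit of the ATP synthase (slope 0.30 ± 0.03, adjusted p = 2.81e-07), Atp5o, which ties its head to the stalk (0.24 ± 0.03, adjusted p = 3.87e-07), Cox7b (0.28 ± 0.04, adjusted p = 1.46e-06), Ndufa4 (0.26 ± 0.03, adjusted p = 1.57e-06) and Atp5l (0.26 ± 0.03, adjusted p = 2.33e-06). Atp5mpl had 150 RPKM in tumour 3871, a median of 199 and 390 RPKM in tumour 4150. Core genes that were not called included Sdha (-0.06 ± 0.04), Sdhb, Sdhd, Ndufs1 (-0.01 ± 0.04), Ndufa9, Ndufv1, Atp5a1 (0.04 ± 0.04) and Atp5b (0.08 ± 0.04). Over all complexes, 53 of 58 genes with transcripts up to 1000 bases rose and 16 of 25 with longer ones. With equal totals these were 24 and 8. All complex II transcripts are among the longer ones. Whether complex II differed from the others was not tested.

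Other mitochondrial genes, from lists chosen with earlier results of these data known, gave these counts with the same score, where 14.3% of tested genes rose and 15.1% fell. Of 25 genes of protein import and inner membrane structure, 21 rose and 1 fell, with a median slope of 0.16. Of 43 assembly factors, 25 rose and 1 fell, among them Uqcc2 for complex III (0.24 ± 0.04), Coa3 for complex IV (0.18 ± 0.03) and Cox17 (0.24 ± 0.04). Of 8 electron carriers and associated proteins 5 rose, including Atpif1, the inhibitor of the ATP synthase (0.23 ± 0.03). Of 13 tricarboxylic acid cycle genes 3 rose and 1 fell. Of 14 tested regulators of mitochondrial biogenesis 3 rose: Polrmt, the mitochondrial RNA polymerase (0.16 ± 0.04, adjusted p = 0.00143), Myc (0.23 ± 0.05, adjusted p = 0.00186) and Tfb1m (0.13 ± 0.04, adjusted p = 0.0179). The coactivator Ppargc1a (-0.13 ± 0.06, adjusted p = 0.102) and Nrf1 (-0.02 ± 0.04, adjusted p = 0.817) were not called. With equal totals the import genes gave 14 higher and 0 lower, the assembly factors 7 and 1, the electron carriers 4 and 0, and the tricarboxylic acid cycle genes and the biogenesis regulators 1 and 1 each. Among all tested genes 5.87% rose and 21.6% fell with equal totals.

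With a score of 12 cytosolic ribosomal protein genes, 40 of 83 subunit genes rose and none fell, where 14.1% of 13598 tested genes rose, 9.93% fell and 24.1% were called. The smallest p-values were those of Cox7a2l (0.15 ± 0.02, adjusted p = 2.82e-05), Uqcrh (0.18 ± 0.03, adjusted p = 0.000229), Atp5c1, the central stalk of the ATP synthase (0.15 ± 0.03, adjusted p = 0.000269), Ndufb7 (0.25 ± 0.05, adjusted p = 0.000385) and Cox7b (0.22 ± 0.05, adjusted p = 0.000844). None of the complex II genes was called. With equal totals 4 rose, Cox7a2l, Uqcrh, Atp5c1 and Ndufb7, and 1 fell, Cox8b (-0.64 ± 0.19, adjusted p = 0.0248), where 3.64% of tested genes rose, 7.54% fell and 11.2% were called. Of genes outside the set with transcripts up to 1000 bases, 33.7% rose with the deposited values and 11.8% with equal totals. Without tumour 4150, the highest for this score, 22 rose and 1 fell. With quantile normalization the direction did not hold: 1 rose and 2 fell, where 10.3% of tested genes were called, and the median slope was -0.01 against 0.02 over all tested genes.

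Few subunit genes were called for proliferation, and they included the alpha and beta subunits of the ATP synthase head. In the joint fit, 5 of 83 subunit genes rose with the proliferation score and 2 fell, where 5.66% of 13538 tested genes rose, 3.52% fell and 9.18% were called. The 5 were Atp5b (0.19 ± 0.04, adjusted p = 0.00194), Atp5a1 (0.15 ± 0.04, adjusted p = 0.00681), Sdha (0.16 ± 0.04, adjusted p = 0.0112), Sdhd (0.12 ± 0.03, adjusted p = 0.0199) and Ndufs1 (0.15 ± 0.04, adjusted p = 0.0203). The 2 were the complex I accessory subunits Ndufa7 (-0.17 ± 0.05, adjusted p = 0.0208) and Ndufv3 (-0.20 ± 0.06, adjusted p = 0.0338). The share called, 7 of 83, was near that of all tested genes, and the median slope was -0.01 against -0.0027. The difference between the depth classes was not tested: 71 of 83 slopes were positive within the deep libraries, with a median of 0.10, and 21 of 83 within the shallow ones, with a median of -0.06.

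All 5 that rose have transcripts over 1000 bases and both that fell have shorter ones. Across the 83 genes the Spearman correlation of slope with transcript length was 0.54, a description with no test. With equal totals 7 rose and 8 fell, where 14.1% and 4.18% of tested genes did, 18.3% in all, and the 7 calls above were among them. Of the 8 that fell, 7 have transcripts up to 1000 bases. Among genes outside the set with such transcripts, 1.45% rose and 4.79% fell with the deposited values. With equal totals these shares were 2.26% and 8.94%. Without tumour 4150 the calls were Atp5b, Atp5g3 and Atp5a1, and 4 genes were called without 3939, without 4144 or without 4459. Of the other mitochondrial lists, 5 of 25 import and inner membrane genes rose, with Tomm70a (0.22 ± 0.04, adjusted p = 0.00206) and Immt (0.14 ± 0.03) first by p, and 3 of 13 tricarboxylic acid cycle genes, Dlst, Cs and Suclg1. None of the 43 assembly factors was called. Among all tested genes 5.66% rose and 3.52% fell. Ppargc1b (0.26 ± 0.06) and Nrf1 (0.15 ± 0.04) were the 2 of 14 biogenesis regulators that rose. With equal totals 7 import genes, 5 tricarboxylic acid cycle genes and 5 biogenesis regulators rose and none of them fell, while 4 assembly factors rose and 4 fell.

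With the stroma matrix score, made from collagen and other matrix genes, 2 of 83 subunit genes rose and 6 fell, where 7.7% of 13538 tested genes rose, 6.18% fell and 13.9% were called. Sdha (0.16 ± 0.04, adjusted p = 0.0103) and Sdhd (0.10 ± 0.03, adjusted p = 0.0380), both of complex II, rose. Ndufv3 (-0.25 ± 0.06, adjusted p = 0.00539), Ndufa7 (-0.19 ± 0.05, adjusted p = 0.00712), Atp5j (-0.20 ± 0.05, adjusted p = 0.00939), Ndufa6 (-0.22 ± 0.06, adjusted p = 0.0147), Cox7b (-0.22 ± 0.06, adjusted p = 0.0219) and Ndufb3 (-0.15 ± 0.05, adjusted p = 0.0396) fell. The median slope was -0.10, against -0.01 over all tested genes, and 15 of 83 slopes were positive. Within the shallow libraries 12 of 83 slopes were positive, with a median of -0.11, but within the deep libraries the direction turned, with 57 positive and a median of 0.05. With quantile normalization 5 rose and 5 fell, where 14.8% of tested genes were called.

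These calls changed with single tumours: without 4150, which had the second lowest stroma score, no subunit gene was called, and 16 were called without 4030 and 17 without 4438, the lowest. The share of all tested genes called is not given for these fits. With equal totals 6 rose and 25 fell, where 23.2% and 4.85% of tested genes did, 28% in all. Of genes outside the set with transcripts up to 1000 bases, 13.6% fell with the deposited values and 20.3% with equal totals. Within the deep or the shallow libraries alone no subunit gene was called for either the proliferation or the stroma matrix score.

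**Figure D5:**
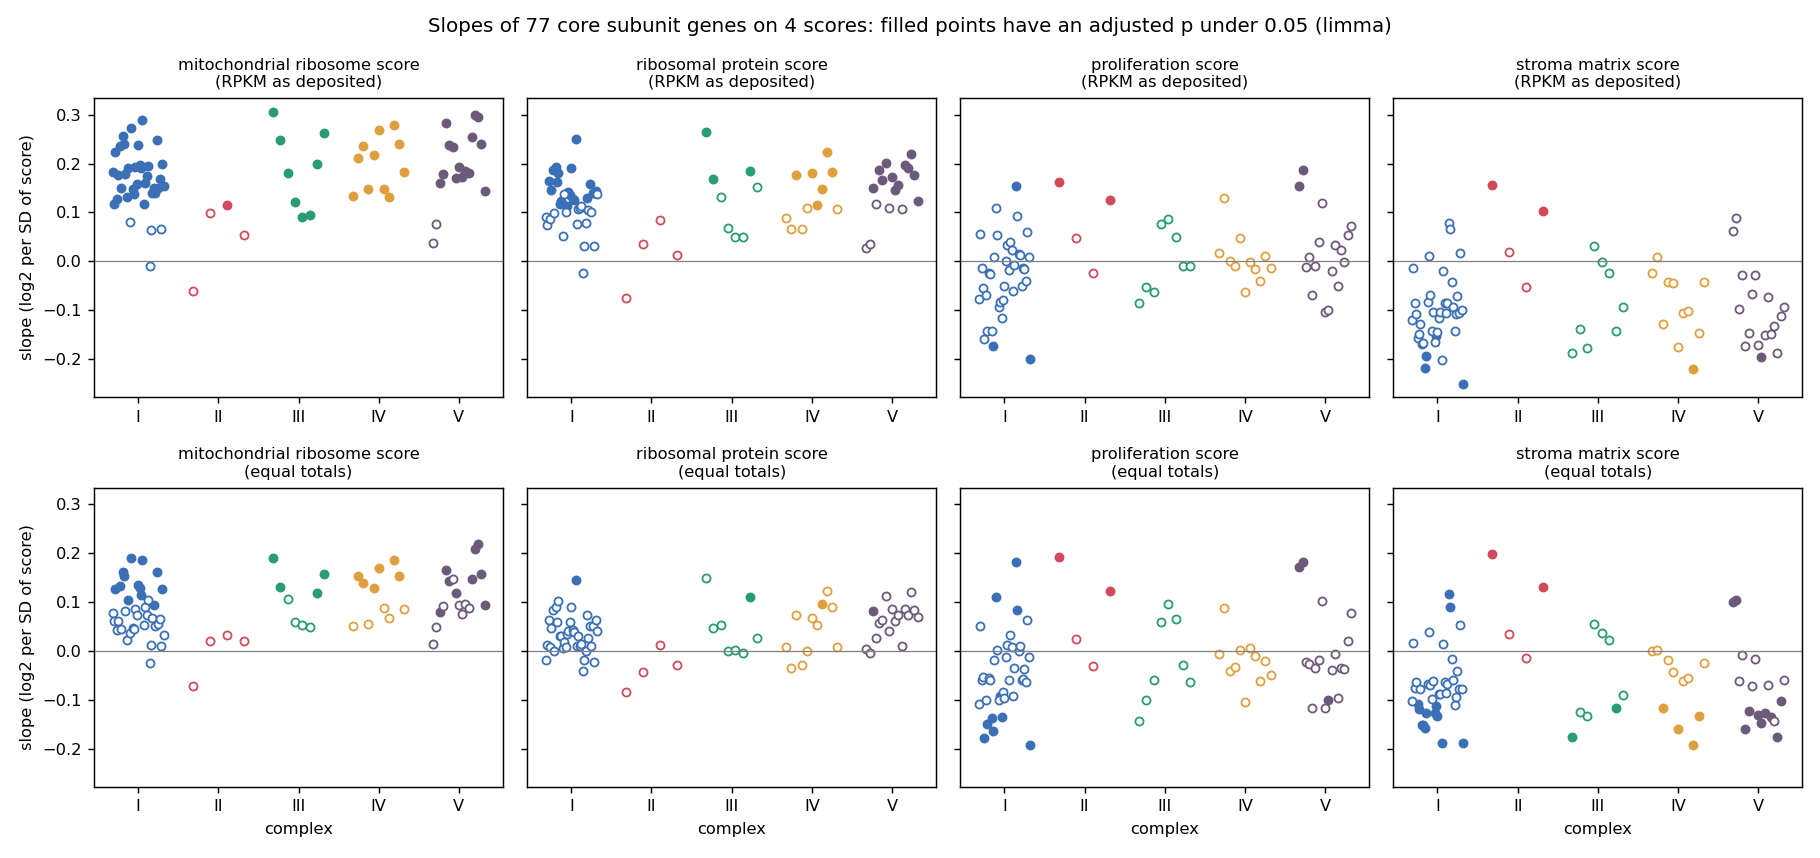
Slope of each of 77 core genes (log2 change per SD of the score) on 4 scores, by complex, with RPKM as deposited in the upper row and equal totals in the lower row; filled points have an adjusted p under 0.05 (limma). Most points of complexes I, III, IV and V lie above 0 for the mitochondrial ribosome score, with complex II having the lowest median, and Sdha and Sdhd are above 0 for the proliferation and stroma matrix scores.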

How the data were processed

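Poly-A RNA of 30 tumours was sequenced, and the authors deposited 1 table of RPKM values for 27902 transcripts. The unit was inferred from the values; per the submitters' processing notes, CASAVA 1.7.0 was used. Aligner settings, genome build and annotation: not given in the sources used here. Rows were named by accession with RefSeq (GRCm38.p6, 26490 rows) and GENCODE vM21 (154); 1258 rows without a name, with 1.94% of the summed RPKM, and 697 small RNA rows were left out. The row with the highest mean was kept per gene, 7 of the 85 subunit genes having more than 1 row. Transcript lengths and positions come from those references. A length is that of the first GENCODE transcript linked to a row and may differ from the length used for the deposited values.

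Depth was estimated from steps between low values of transcripts of 150 to 2500 bases. From 68.8 to 77.3% of them came out as whole reads (tolerance 0.12), where chance gives 24%. Counts therefore could not be rebuilt, and count tests were left out. The correlation of any 2 tumours over tested genes was 0.98 at most, and no tumour was counted as a repeat of another.

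Tests used log2(RPKM + 1), a scale on which changes of low genes are understated, on the 13610 genes whose mean reached 1 RPKM. A score is the mean of the standardised values of its list, divided by its SD. A joint fit held insert size and 4 scores (T cell, milk secretory, proliferation and stroma matrix); the skeletal muscle, adipocyte, hypoxia, ribosomal protein and mitochondrial ribosome scores were each fitted with insert size, and depth class alone. Fits were made in R 4.3.3 with the two-sided moderated test of limma 3.58.1, trend on (tables in Python 3.11.15). Benjamini-Hochberg adjustment ran over all tested genes, genes of the score included. Genes of the score were left out only of the shares of tested genes called. The fit was tested on simulated data, with the outcome not reported here. Each gene was drawn independently there, so the simulation does not cover genes that vary together. No subunit gene is in a score. The labels give 1 animal per sample, so p-values measure the spread between animals, technical variation included.

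The members, lists and tests were chosen with earlier results of these data known. The named genes are, per complex, the 3 highest and 3 lowest means, the 3 largest SDs and the smallest, per fit up to 5 genes with the smallest p in each direction, the isoform pairs, the complex II genes and Ndufs5; some of these are given only within ranges and counts or are not reported here, and other names were chosen after their values were seen. Alternatives were another pseudocount, filters on low values, quantile normalization, depth class as a covariate, each depth class alone, leaving out tumours and, added after the data were seen, equal totals.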

Additional observations from a re-analysis of the deposited data

How the results depend on the processing

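No paired analysis was possible because all tumours form a single group and the animal numbers mark single samples. Equal totals, and the subsets for co-variation, were chosen after seeing the data. The counts of subunit genes called with pseudocount 0.1, with a minimum mean of 5 RPKM and without a filter on low values all stayed within 1.5 times those reported. With equal totals 15 genes were called for proliferation, 31 for stroma matrix, 2 for insert size, 5 for ribosomal proteins and 32 for the mitochondrial ribosome. The shares of all tested genes called were, in that order, 18.3%, 28%, 0.382%, 11.2% and 27.4%. With quantile normalization 2 subunit genes were called for insert size, 3 for ribosomal proteins and 38 for the mitochondrial ribosome. Among all tested genes 0.426%, 10.3% and 25.6% were called. With depth class as a covariate 5 subunit genes were called for stroma matrix and 3 for insert size, and with insert size as a covariate 7 for depth class. The shares of tested genes called were 9.75%, 0.265% and 3.89%. In deep libraries only, 0 were called for proliferation, stroma matrix and insert size and 1 each for skeletal muscle, adipocyte and ribosomal proteins. In shallow libraries only, 0 subunit genes were called for proliferation, stroma matrix and insert size, 3 for ribosomal proteins and 8 for the mitochondrial ribosome. Of tested genes, 2.05%, 1.42%, 0%, 5.33% and 2.66% were called, in that order. Without the 2 most extreme tumours, 4 subunit genes were called for proliferation, 19 for stroma matrix and 17 for ribosomal proteins. Among tested genes 6.49%, 15.8% and 14.7% were called. Of the slopes of named called genes, 3 turned in deep libraries only: Cox8b (-0.10) and Cox7a1 (-0.0068) on the muscle score and Cox6a2 (-0.00250) on the adipocyte score. The cause was not tested.

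Leaving out each tumour in turn gave 3 to 8 calls for proliferation, 0 to 17 for stroma matrix, 0 to 1 for insert size, 1 to 2 for adipocyte, 0 to 1 for hypoxia, 23 to 47 for ribosomal proteins and 60 to 70 for the mitochondrial ribosome, and 3 and 1 throughout for muscle and depth class. Shares over all tested genes are not given for fits without a single tumour. The median correlation over the 83 genes, 0.49, was 0.28 with equal totals, 0.52 in deep and 0.51 in shallow libraries, and 0.40 to 0.52 with a tumour left out. Deep or shallow libraries alone hold 14 and 16 tumours, and the part of these numbers in the counts of calls was not tested. For the mitochondrial ribosome score 50 subunit genes were called in deep and 8 in shallow libraries, where 17.3% and 2.66% of tested genes were.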
